A study of Mus musculus with 12 samples.

Results

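The sites described here are the HA-RevErbα binding sites of mouse brown adipose tissue whose nearest annotated gene makes no protein. They are the windows of the 2 deposited peak lists, 1 for each temperature, whose gene type is neither protein-coding nor empty, with overlapping windows of the lists counted once. There were 1966 of them among 11740 distinct sites, or 16.7% (16.1 to 17.4, exact 95% Clopper-Pearson interval), and they were labelled with 889 genes. The libraries came from C57BL/6 mice kept for 1 week at 4 °C or at 29 °C, a temperature at which mice need little extra heat. HA-RevErbα mice carry a Rev-Erbα that bears an HA epitope tag, and their brown fat gave 4 libraries at 4 °C and 4 at 29 °C. Wild-type (WT) mice, which have no HA tag, gave 2 libraries at each temperature, and all 12 libraries were pulled down with anti-HA magnetic beads. The labels give neither the way the tag was introduced nor the time of day, age or sex.

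Each list was called on pooled libraries, and every binding value is that of 1 pool, either the tagged or the WT libraries of a temperature. No binding value therefore has a spread between mice, and none of the differences below was tested. The intervals printed beside ratios and shares cover counting error only. Values are FPKM, reads per kilobase of the 200 bp window per M reads of the pool (M for mega). Reads per pool came to 63.8 M for the tagged mice in the cold, 60.8 M for those at 29 °C, and 27.1 M and 25.1 M for WT. A count of 3 reads was worth 0.235 to 0.598 FPKM, depending on the pool. Between 2.54% and 7.37% of the reads of a library did not align. The HA-RevErbα libraries at 4 °C and 29 °C differed by 1.06 M aligned reads on average, within their spread (p = 0.714 by an exact two-sided permutation test, whose 70 splits allow a p of 0.0286 at the least).

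Rev-Erbα, encoded by Nr1d1, is a nuclear receptor of the circadian clock that binds DNA at a short hexamer, often preceded by an A/T-rich stretch, and represses transcription through the corepressor NCoR and its histone deacetylase HDAC3. Most of its sites lie far from gene starts, so the gene with the nearest start is a label and not a known target. Noncoding genes include microRNA genes, whose short products pair through their seed with messenger RNAs, long noncoding RNAs (lncRNAs), small nucleolar RNAs (snoRNAs) that guide chemical changes of other RNAs, and pseudogenes. In brown fat, microRNAs such as miR-193b and miR-365 are known as regulators of adipocyte differentiation, and miR-378 is made from an intron of the gene for the coactivator PGC-1β.

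The 889 labels comprised 238 microRNA genes with 471 sites, 379 transcripts known by a RIKEN clone name with 910 sites, 151 predicted Gm genes with 367 sites, 42 pseudogenes with 79 sites, 27 antisense or opposite-strand transcripts with 50 sites, 9 snoRNA genes or hosts with 12 sites, 2 LOC genes with 4 sites and 41 other genes with 73 sites. In the RefSeq gene table of GRCm38.p6, 888 of the 889 gene IDs were found, and 591 of them are lncRNA genes. There, 6 of the genes that the peak lists type as noncoding are protein-coding, and 10 sites carry 5 gene labels whose gene lies on another chromosome. The 238 microRNA genes are 19.4% (17.2 to 21.7) of the 1228 in that table. 458 of the 889 genes had 1 site, and 14 had 10 or more.

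Several microRNAs that share a seed had a site at more than 1 of their genes. Of the 238 genes, 210 had a mature sequence to compare, giving 334 mature entries with 315 different seeds, and 16 seeds were shared by at least 2 of the genes with sites (26 genes). Only seeds with at least 2 such genes are described, which favours high shares. Over all microRNA genes of the table, 19.4% had a site. The 3 genes of the table with the seed of miR-148 and miR-152 all had a site, as did 3 of 4 genes of the miR-29 seed, 2 of 3 of the miR-103 and miR-107 seed, and 3 of 13 of the let-7 seed. These are counts of labels and not of separate loci. Mir29a and Mir29b-1 start close together on chromosome 6, with windows 54.5 kb apart, so the nearest start decides which of them labels a window. Their mature RNAs are shown to make the shared seed visible, chosen after their sites were seen. They are given from 5′ to 3′ after RefSeq (GRCm38.p6), with the seed (bases 2 to 8) in capitals.
Mir148a, miR-148a-3p: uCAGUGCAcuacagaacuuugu
Mir148b, miR-148b-3p: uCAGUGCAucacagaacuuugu
Mir152, miR-152-3p: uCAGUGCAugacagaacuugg
Mir29a, miR-29a-3p: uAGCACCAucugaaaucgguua
Mir29b-1 and Mir29b-2, miR-29b-3p: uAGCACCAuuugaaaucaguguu
Mir103-2, miR-103-3p: aGCAGCAUuguacagggcuauga
Mir107, miR-107-3p: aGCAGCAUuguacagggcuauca
Mirlet7b, let-7b-5p: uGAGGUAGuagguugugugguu
Mirlet7i, let-7i-5p: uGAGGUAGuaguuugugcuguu
Mir98, miR-98-5p: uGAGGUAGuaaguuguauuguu

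None of the 12 microRNA genes with the highest-scoring sites is among those 26 genes. For 4 of them the mature RNAs are shown, since their sites are described at length below.
Mir6995, miR-6995-5p: cUGGGAGUagaagggggaaacca
Mir467h, miR-467h: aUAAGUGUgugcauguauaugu
Mir1904, miR-1904: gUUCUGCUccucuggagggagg
Mir139, miR-139-5p: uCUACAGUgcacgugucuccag
Mir139, miR-139-3p: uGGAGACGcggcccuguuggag

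The windows lay in other places than those labelled with protein-coding genes, a difference described here by shares and not tested. Of the 1966 sites, 1031 (52.4%, 50.2 to 54.7) were intergenic, against 42.8% (41.8 to 43.8) of the 9774 protein-coding sites. A further 599 (30.5%, 28.4 to 32.6) lay inside the transcript of a protein-coding gene other than their label, against 10.6% (10.04 to 11.3). Only 294 (14.95%, 13.4 to 16.6) lay in the transcript or at the promoter of the labelled gene itself, against 45.6% (44.6 to 46.6). The median distance to the labelled start was 35.3 kb against 26.0 kb, and 466 sites (23.7%, 21.8 to 25.6) lay within 10 kb against 26.6% (25.7 to 27.4). These intervals treat each window as independent, which neighbouring windows are not. The shares also depend on the length of the annotated transcripts, which was not taken into account.

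**Figure D1:**
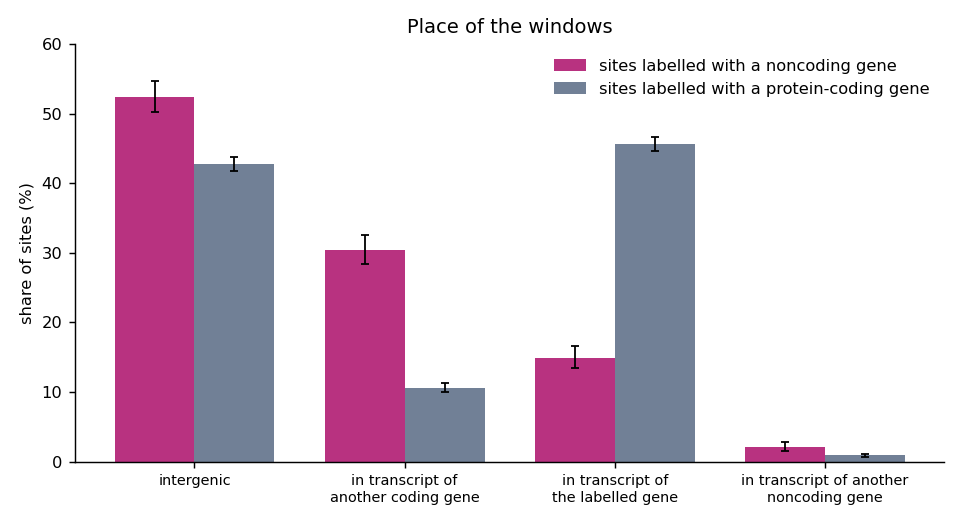
Share of sites (%) by place of the window, for the 1966 sites labelled with a noncoding gene and the 9774 labelled with a protein-coding gene; bars are shares and error bars exact 95% Clopper-Pearson intervals. The noncoding label goes with 30.5% of windows in another coding gene's transcript, where the protein-coding label has 10.6%.

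By annotation class, 800 windows (40.7%) were intronic, 57 (2.90%) at promoters, 29 in exons of noncoding transcripts, 27 at transcript ends, 14 in 3′ untranslated regions and 8 in coding exons. Few windows with microRNA labels lay in the transcript of the label, a share that also depends on how short that transcript is. Of the 471 sites with microRNA labels, 256 lay inside another coding transcript, 177 were intergenic and 21 were in the microRNA transcript or at its start. For the RIKEN transcripts the same numbers were 212, 533 and 158 of 910.

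The coding genes that held these windows numbered 304 by name, with 595 of the 599 sites. For 151 of the 304, no site of either list carried the host's symbol of GRCm38.p6, so a search of the lists by that symbol would not return them. The match was by symbol, so a host that the lists hold under an older name counts among the 151. Pde4d, which encodes a cAMP phosphodiesterase, held 12 sites, all labelled Mir1904 or Mir582 and none Pde4d. Their HA-RevErbα values ran from 4.56 to 33.1 FPKM at 4 °C and from 0.91 to 7.41 at 29 °C, and the WT values were at most 2.96. The ratio of 4 °C to 29 °C was at least 2 at 11 of the 12, where 80.3% of all distinct sites reached it.

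The brown-fat transcription regulators Prdm16 and Ebf2 were also absent as labels. Prdm16, a coregulator that brown adipocyte identity depends on, held 6 sites labelled 5930403L14Rik, at 3.54 to 8.87 FPKM at 4 °C and 0.91 to 4.12 at 29 °C (WT at most 2.60). Ebf2, which recruits PPARγ to brown-fat genes, held 5 sites labelled 4930438E09Rik, at 5.50 to 13.1 FPKM at 4 °C and 2.64 to 5.36 at 29 °C (WT at most 3.0). Among these windows with noncoding labels the ratio was at least 2 at 5 of 6 in Prdm16 and 5 of 5 in Ebf2. Over all distinct sites 80.3% reached it. A further 2 windows inside Prdm16 and 1 inside Ebf2 carried protein-coding labels, and their ratios are not given here. These hosts were named after their values were seen.

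Other hosts without a label of their own were Rnf144a (9 sites), Msi2 (8 sites) and Zbtb20 (7 sites). In Rnf144a all 9 sites had ratios between 3.31 and 13.2, and in Msi2 all 8 lay between 2.20 and 6.31. In Zbtb20, which encodes a zinc finger repressor, ratios ran only from 1.55 to 2.38. Prkce, a protein kinase C gene, held 11 sites labelled 2010106C02Rik, with ratios of 2.46 to 8.69, besides 7 windows with protein-coding labels. In the lists, 4 sites were labelled Prkce. In Pde2a, another phosphodiesterase gene, lay the 6 sites labelled Mir139, against 1 labelled Pde2a. Ppargc1b, the gene for PGC-1β, held the single site labelled Mir378a.

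Among the microRNA labels the 12 highest-scoring sites had HA-RevErbα values of 24.2 to 52.3 FPKM at 4 °C, where WT values were 0.93 to 3.33. The highest was labelled Mir6995, at chr19:47376888-47377088 in an intron of Sh3pxd2a (build mm9, like all window positions here). It measured 52.3 FPKM in the HA-RevErbα pool at 4 °C and 33.6 at 29 °C, with WT at 2.04 and 3.0. Both HA-RevErbα values stood far above both WT values, and the ratio of 4 °C to 29 °C was 1.55 (1.37 to 1.76).

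The site labelled Mir378a, at chr18:61543334-61543534 in an intron of Ppargc1b and 14.1 kb from the microRNA start, measured 47.9 FPKM at 4 °C and 30.8 at 29 °C, with WT at 2.59 and 3.0 (ratio 1.56, 1.37 to 1.78). It was the only site with this label. At Mir1904, at chr13:110701263-110701463 in an intron of Pde4d, the values were 33.1 at 4 °C and 7.16 at 29 °C, with WT at 2.22 and 0.81. The ratio there was 4.62 (3.66 to 5.89), the largest among the 12 genes, and its interval did not overlap those of Mir6995 and Mir378a. At Mir139, which gives a microRNA from an intron of Pde2a, chr7:108639539-108639739 measured 27.8 and 12.8, with WT at 0.93 and 0.41 (ratio 2.16, 1.79 to 2.63).

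Mir467h, whose 11 sites were the most of any microRNA label, had its best site at chr9:115386764-115386964, 95.9 kb from the labelled start and intergenic. Its values were 33.6 at 4 °C and 9.96 at 29 °C, with WT at 1.12 and 0.81 (ratio 3.38, 2.76 to 4.17). Mir701 showed the smallest difference of the 12, at 25.4 and 20.6 FPKM with WT at 1.30 and 2.40 (ratio 1.24, 1.04 to 1.46). Mir670 was the only one of the 12 listed at 4 °C alone, at 24.2 and 6.01 FPKM with WT at 2.41 and 2.0 (ratio 4.04, 3.12 to 5.28). So sites of like height at 4 °C ranged widely at 29 °C.

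**Figure D2:**
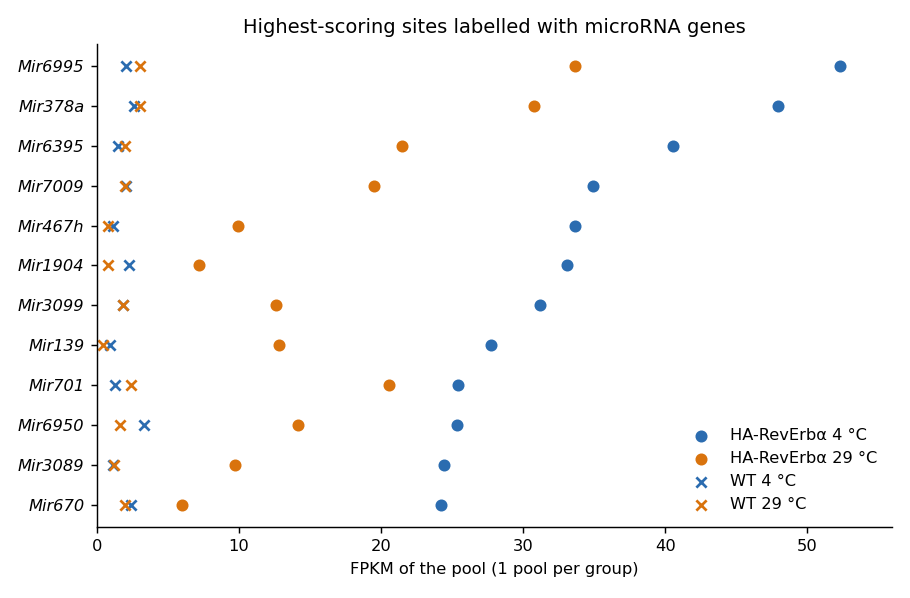
FPKM of the 4 pools (horizontal axis, 1 pool per group, no error bars) at the highest-scoring site of each of the 12 microRNA genes that lead by score. Circles are HA-RevErbα pools and crosses WT pools; all circles lie to the right of all crosses, and the gap between the 4 °C and 29 °C circles is widest in proportion at Mir1904.

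The largest ratios rested on low 29 °C values. The largest ratio at a microRNA gene's best site was that of Mir7211, at 3.23 FPKM and 0.26 with WT at 0.19 and 1.21 (ratio 13.0, 4.16 to 65.8, on 3 reads at 29 °C, where HA-RevErbα was below WT). Mir7219 followed at 13.2 and 1.08 FPKM, with WT at 2.41 and 1.60 (ratio 12.3, 7.01 to 23.6). Mir10b, of the Hox-linked miR-10 family, measured 3.77 and 0.34 FPKM, with WT at 0.56 and 0.61 (ratio 11.4, 4.19 to 43.7, on 4 reads at 29 °C).

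A few microRNA labels went the other way. Mir6540 had a promoter site listed only at 29 °C, at 2.13 FPKM at 4 °C and 5.68 at 29 °C, with WT at 0.75 and 0.21 (ratio 0.373, 0.230 to 0.590). Mir7689, listed at both temperatures, measured 4.32 and 7.16 FPKM with WT at 0.38 and 0.61 (ratio 0.603, 0.422 to 0.855). Mir7032, listed at 29 °C only, measured 2.60 and 3.79 FPKM with WT at 0.56 and 0.41 (ratio 0.684, 0.424 to 1.09, an interval that includes 1).

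Of the genes with a shared seed, 21 of 26 had a ratio of at least 2 at their best site, a share near the 76.9% of all 238 microRNA genes. The miR-148 and miR-152 genes lay at 2.61 (1.87 to 3.69) for Mir148a, 1.99 (1.49 to 2.68) for Mir148b and 1.94 (1.23 to 3.11) for Mir152, with overlapping intervals. Mir148b had its site 0.851 kb from the start, at 11.5 FPKM at 4 °C and 5.77 at 29 °C with WT at 1.67 and 1.60. The windows labelled with miR-29 genes differed in ratio. That of Mir29a, listed at 29 °C only and at 3.52 kb from the labelled start, measured 3.85 and 4.20 FPKM with WT at 1.85 and 0.61 (ratio 0.916, 0.606 to 1.38). The window labelled Mir29b-1 lay 54.5 kb from it on the same chromosome, at -50.6 kb from its own labelled start. It measured 8.24 and 3.22 FPKM with WT at 1.48 and 2.0 (ratio 2.57, 1.76 to 3.81). On chromosome 1, the Mir29b-2 window measured 6.05 and 2.81 with WT at 1.30 and 1.41 (ratio 2.16, 1.42 to 3.34). These are ratios of windows, and the label does not make a window part of its gene.

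The let-7 genes had higher values at 4 °C in each case. Mirlet7b measured 14.8 and 3.79 FPKM with WT at 2.59 and 1.41 (ratio 3.90, 2.81 to 5.50), and Mirlet7i 10.4 and 2.31 with WT at 2.04 and 1.41 (ratio 4.50, 2.97 to 7.02). Mir98 was low in all pools, at 3.38 and 1.08 with WT at 0.38 and 1.21 (ratio 3.15, 1.66 to 6.39). Of the miR-103 and miR-107 genes, which act on insulin signalling, Mir103-2 measured 14.1 and 5.85 FPKM with WT at 2.04 and 2.20 (ratio 2.42, 1.83 to 3.23). Mir107 measured 5.73 and 1.74 with WT at 1.12 and 1.60 (ratio 3.31, 2.02 to 5.67).

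A list of 73 microRNA genes studied in adipose tissue and metabolism, of which 68 are in the gene table, had 16 genes with a site (34 sites). Of the 1228 microRNA genes in that table, 19.4% had a site. The median ratio at the best sites of the 16 genes was 3.52, and 14 of 16 had a ratio of at least 2. Over the best sites of all 889 labels the median was 2.97 and 78.2% reached 2, and over the 238 microRNA genes 2.90 and 76.9%. Only Mir378a, Mir365-2 and Mir148a had a site listed at 29 °C. Mir365-2, one of the genes for miR-365, measured 17.3 FPKM at 4 °C and 12.1 at 29 °C at its best site, 3.42 kb from the start, with WT at 2.96 and 2.20 (ratio 1.43, 1.16 to 1.78). Mir455, a microRNA gene linked to brown adipogenesis, measured 5.89 and 1.41 FPKM 3.82 kb from its start, in Col27a1, with WT at 1.30 and 1.41. Its 29 °C value was that of WT, and its ratio was 4.21 (2.46 to 7.60). Mir26a-1 (6.20 and 1.57), Mir30a (6.44 and 1.41) and Mir203 (9.73 and 2.64 FPKM) had ratios between 3.69 and 4.6, with WT between 0.75 and 1.48. No site was labelled with Mir193b, Mir365-1 or Mir155.

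Across the 1966 sites the HA-RevErbα signal was mostly higher at 4 °C, and values at protein-coding sites were close to these. Of the 1966, 1546 entered through the 4 °C list only, which selects for high HA-RevErbα at 4 °C. The counts below carry that selection. The ratio was above 1 at 1544 of those 1546 and at 286 of the 315 sites in both lists. Among the 105 sites of the 29 °C list only, it was above 1 at 55. The median window had 7.15 FPKM at 4 °C and 2.64 at 29 °C in the HA-RevErbα pools and 1.12 and 1.01 in the WT pools, where protein-coding sites had 6.99, 2.39, 1.12 and 1.01. The median ratio was 2.91 (1.46 to 5.81 from the 10th to the 90th percentile) against 2.99. A ratio of at least 2 was found at 1529 sites (77.8%, 75.9 to 79.6), where 80.3% of all distinct sites reached it. A ratio of at most 0.5 was found at 14 sites (0.712%), where 0.698% of all distinct sites reached it. Both shares are near those over all sites. The counting interval lay above 1 at 1785 sites (90.8%), below 1 at 27 and included 1 at 154. It lay above 1 at 92.9% of the protein-coding sites.

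These counts depend on how the pools are scaled. The scalings by WT reads use windows that the lists chose partly by low WT at their own temperature, so the factors carry that selection. Pools scaled to equal WT reads over the windows of the 4 °C list (a factor of 1.02) gave a median of 2.85 and 1513 members, close to the values above. Pools scaled to equal WT reads over the shared sites (a factor of 1.44) gave a median of 2.02, 996 members (50.7%) and 53.1% of all sites at 2 or more. Scaled to equal WT reads over the windows of the 29 °C list (a factor of 1.71), they gave 1.70, 704 members (35.8%) and 38% of all sites. Under these last 2 scalings the ratio stayed above 1 at 1775 and 1683 members, against 1885 with total reads. Of the 72 sites that the naming rule picked, 8 and 14 then moved from above to below 1. Among these were Mir701, Mir365-2, Mir7054 and Pvt1 under both scalings and Mir6995 and Mir378a under the second.

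**Figure D3:**
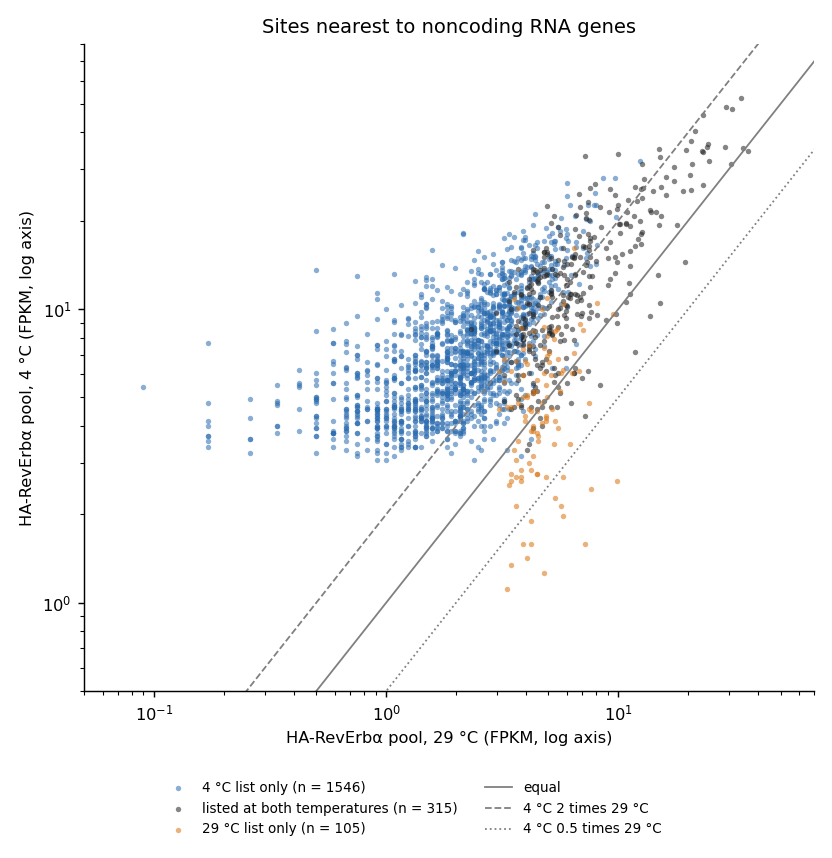
HA-RevErbα FPKM at 4 °C (vertical, log axis) against 29 °C (horizontal, log axis) for the 1966 sites, 1 point per site, coloured by the list or lists that hold it; lines mark equality and ratios of 2 and 0.5. Most points lie above the upper line, and those below the lower line belong to the 29 °C list only.

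By listing, 315 sites were in both lists, 1546 in the 4 °C list only and 105 in the 29 °C list only. The noncoding share of the sites was 18.9% (17.01 to 20.8) in both lists, 16.2% (15.4 to 16.9) in the 4 °C list only and 20.5% (17.1 to 24.2) in the 29 °C list only. The shared sites made up 75.0% (70.6 to 79.1) of the noncoding 29 °C sites and 16.9% of the noncoding 4 °C sites, against 76.9% and 14.5% for protein-coding labels. The listing rests on the same FPKM as the ratio, since every listed window has at least 3 FPKM more than WT and about 4 times the WT value in its own list. Ratios within a listing are therefore descriptions.

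Among the 315 shared sites the ratio was at least 2 at 128 (40.6%), near the 43.1% of all shared sites, and at most 0.5 at 0, where the rate over all shared sites was 0.539%. Their median values were 12.1 FPKM at 4 °C and 5.93 at 29 °C, with WT at 1.48 and 1.01. Among the 1546 of the 4 °C list only, 1393 (90.1%) had a ratio of at least 2, against 90.5% over all such sites. The HA-RevErbα pool at 29 °C was above WT at 1305 of these 1546, and at 8011 of all 9557 such sites, a similar share. The medians at the 1546 were 2.15 FPKM for HA-RevErbα and 1.21 for WT. Only 14 of the 1546 (0.906%) reached both limits of the lists at 29 °C in the same window, against 1.0% over all such sites.

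The 105 sites listed at 29 °C only had median values of 4.64 FPKM at 4 °C and 4.45 at 29 °C, a median ratio of 1.02. The ratio was at least 2 at 8 (7.62%) and at most 0.5 at 14 (13.3%), against 11.7% and 14.2% over all sites of that list only. At 10 (9.52%) both limits were reached at 4 °C too, against 12.5%. WT differed by listing too, but a listing itself selects for low WT at its own temperature, so the WT values here are a description. WT windows had a median of 1.67 FPKM at 4 °C and 0.61 at 29 °C, and summed WT reads were 2.85 times (2.51 to 3.24) higher at 4 °C, where summed HA-RevErbα reads were 1.08 times higher. At the sites of both lists the WT sum was 1.42 times higher at 4 °C, and at those of the 4 °C list only 0.960 times. The part of WT signal in these listings was not tested.

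**Figure D4:**
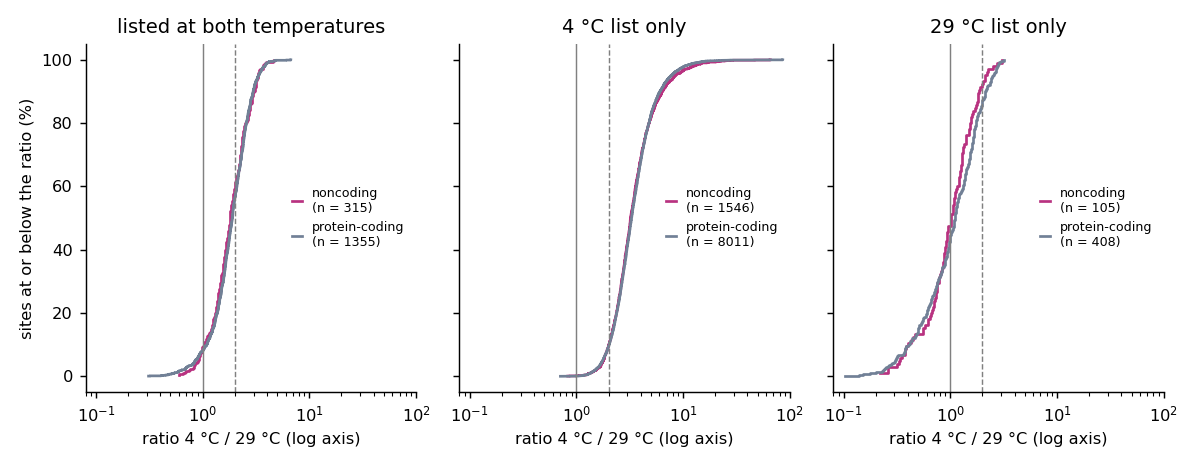
Cumulative share of sites (%) by ratio of 4 °C to 29 °C HA-RevErbα reads (log axis), for noncoding and protein-coding labels in each listing class; vertical lines mark ratios of 1 and 2. The curves for noncoding and protein-coding labels nearly coincide in the first 2 panels, with medians of 1.81 and 1.90 at shared sites and 3.21 and 3.29 in the 4 °C list only.

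By gene group the median ratio was 3.01 for microRNA labels, 2.81 for RIKEN transcripts, 2.89 for predicted Gm genes, 3.18 for antisense transcripts, 2.66 for pseudogenes and 2.93 for the 12 snoRNA sites. The ratio was at least 2 at 378 of 471, 682 of 910, 298 of 367, 40 of 50, 57 of 79 and 9 of 12 of them, and at 61 of 73 sites (83.6%) of the other genes, whose median was 2.96. Those shares lay around the 80.3% of all distinct sites, with the pseudogenes lowest at 72.2%. The largest single ratio, 65.8 (11.4 to 2636), was at Gm8179, with 5.42 FPKM at 4 °C against 0.09 at 29 °C, where WT had 1.01. Its 29 °C value is worth under 3 reads, so the size of the ratio is poorly known.

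The strongest of the other labels were shared sites. 3930402G23Rik led at chr8:10940004-10940204, with 48.7 FPKM at 4 °C and 29.2 at 29 °C against WT at 2.04 and 1.60 (ratio 1.67, 1.46 to 1.91). B930059L03Rik, in an intron of Ppp2r5c, measured 45.7 and 23.1 with WT at 2.22 and 1.01 (ratio 1.98, 1.71 to 2.29). Among the 10 highest-scoring non-microRNA labels, only Zfp572, typed as a pseudogene, passed a ratio of 2, at 35.2 and 14.98 FPKM with WT at 2.04 and 3.0 (ratio 2.35, 1.98 to 2.81). Gm29811, at 35.4 and 34.4 FPKM with WT at 1.48 and 2.40, had a ratio of 1.03 (0.899 to 1.18). 2900052N01Rik, at 34.6 and 36.4 with WT at 1.30 and 0.81, had a ratio of 0.951 (0.832 to 1.09). At these last 2 strong sites the counting interval included 1.

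Among the shared sites of other labels the largest ratio was 4.56 (3.44 to 6.13) at 1700123J17Rik, with 22.5 FPKM at 4 °C and 4.94 at 29 °C and WT at 1.12 and 0.21. The smallest of those chosen as the highest-scoring shared site of their label was 0.661 (0.480 to 0.905) at Gm4710, with 5.50 and 8.32 FPKM and WT at 1.12 and 0.81. 4933430M04Rik and 4933404O12Rik also had intervals below 1, at 9.50 and 13.7 FPKM with WT at 0.38 and 0.81 and at 10.5 and 15.1 with WT at 1.12 and 1.60. A lower-scoring shared site of 4933416E03Rik, described below with its locus, was lower still at 0.603.

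Of the sites listed at 29 °C only, 3 of the 5 highest-scoring labels had ratios well under 0.5. Their score follows the 29 °C reads, by which the ratio is divided, so this choice itself favours low ratios. Over all distinct sites of that list only, 14.2% had a ratio of at most 0.5. 4933416E03Rik had 2.60 FPKM at 4 °C and 9.88 at 29 °C with WT at 0.93 and 0.81 (ratio 0.262, 0.173 to 0.388). Gm7008 had 2.44 and 7.66 with WT at 0.75 and 0.01, the value that stands for no read (ratio 0.318, 0.205 to 0.482). Rab11fip4os2, an opposite-strand transcript of Rab11fip4, had 1.58 and 7.16 with WT at 0.93 and 1.01 (ratio 0.219, 0.128 to 0.360), the lowest of all 1966 sites. It lay 36.6 kb from the Mir365-2 site with the ratio of 1.43. Gm9899, in an intron of the potassium channel gene Kcnk3, had 4.79 and 7.49 with WT at 0.75 and 1.01 (ratio 0.639, 0.454 to 0.894). A530013C23Rik was near even, at 9.66 and 9.47 with WT at 3.88 and 1.41 (ratio 1.02, 0.784 to 1.33).

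The 14 labels with at least 10 sites held 160 sites, and 13 of them had a median ratio between 1.98 and 3.72. All sites reached a ratio of 2 at 1700019E08Rik (14 sites) and 2010106C02Rik (11 sites), where 80.3% of all distinct sites did. The pseudogene label H2afy3 had the most, 17 sites over 635 kb of chromosome 15, with ratios from 0.879 to 4.65. Together with those of D030024E09Rik and the lncRNA Pvt1 next to it, these were 31 sites within 1444 kb. Of the 31, 16 had a ratio of at least 2, a smaller share than the 80.3% of all distinct sites.

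The exception was 4933416E03Rik, whose 11 sites on chromosome 2 had a median ratio of 0.931. Of these, 5 were listed at 29 °C only, 4 in both lists and 2 at 4 °C only, where the 29 °C list only holds 105 of all 1966 sites. The HA-RevErbα values were 2.60 to 7.93 FPKM at 4 °C and 2.07 to 11.8 at 29 °C. The counting interval lay below 1 at 3 neighbouring sites between positions 159577219 and 159652310, with ratios of 0.262, 0.603 and 0.559. The first of the 11 windows lay 525 kb from the labelled start, and these 3 sites lay between 121 and 196 kb from it.

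**Figure D5:**
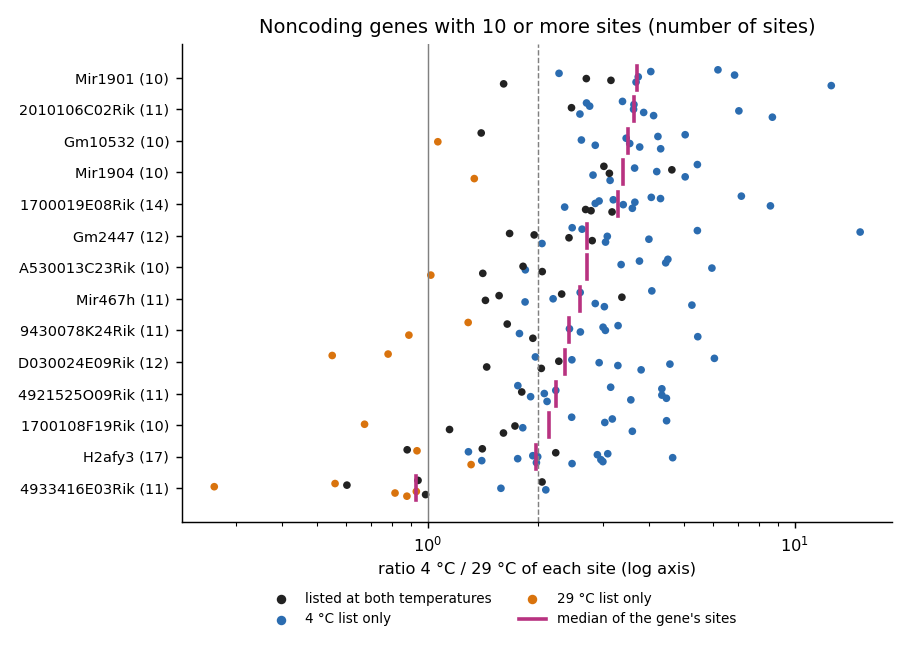
Ratio of 4 °C to 29 °C HA-RevErbα reads (log axis) of each site, 1 row per noncoding gene with 10 or more sites; points are sites coloured by listing and bars the median of the gene's sites. The 11 sites of 4933416E03Rik centre on 0.931, and the other 13 medians lie between 1.98 and 3.72.

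A list of 60 lncRNA genes of known name, 57 of them in the gene table, had 11 genes with a site (19 sites). The share with a site over all lncRNA genes of that table is not given here. The median ratio at the best sites of the 11 genes was 2.78, and 7 of 11 reached 2, against 2.97 and 78.2% over the best sites of all 889 labels. Kcnq1ot1, the antisense lncRNA of the imprinted Kcnq1 domain, was highest, with 25.6 FPKM at 4 °C and 9.22 at 29 °C and WT at 1.30 and 1.41 (ratio 2.78, 2.23 to 3.47). Airn, the antisense lncRNA of the imprinted Igf2r domain, measured 5.11 and 2.89 with WT at 0.75 and 1.21 (ratio 1.77, 1.16 to 2.75). The Pvt1 site measured 9.73 and 7.0 with WT at 2.04 and 1.41 (ratio 1.39, 1.05 to 1.86).

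Trp53cor1, a lncRNA induced by p53 and known as lincRNA-p21, had the only promoter site of this list, 0.063 kb from its start, at 9.81 and 3.14 FPKM with WT at 2.22 and 1.60 (ratio 3.14, 2.17 to 4.64). Malat1, an abundant nuclear lncRNA, measured 4.40 and 1.74 at a site 9.67 kb from its start, with WT at 0.75 and 1.21 (ratio 2.54, 1.52 to 4.42). Snhg3, a snoRNA host gene, measured 5.42 and 1.82 with WT at 1.30 and 1.01 (ratio 2.99, 1.83 to 5.08). Epb41l4aos, listed at 29 °C only, measured 4.79 and 4.70 with WT at 1.67 and 0.21 (ratio 1.02, 0.699 to 1.49). Dleu2, A330023F24Rik, 1500017E21Rik and 2610035D17Rik had ratios between 1.83 and 4.84. No site was labelled H19, Neat1, Meg3 or Xist.

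Promoter sites were few, 57 windows at 54 genes, of which 3 were in both lists, 49 in the 4 °C list only and 5 in the 29 °C list only. They had 6.52 FPKM at 4 °C and 2.56 at 29 °C in the median, and 44 (77.2%) had a ratio of at least 2, against 80.3% of all distinct sites. The strongest was at A230028O05Rik, 0.202 kb before its start, with 27.9 FPKM at 4 °C and 8.56 at 29 °C and WT at 3.14 and 1.80 (ratio 3.26, 2.62 to 4.101). At Mir7054 the promoter site was shared, with 20.8 and 15.2 FPKM and WT at 2.04 and 1.80 (ratio 1.37, 1.13 to 1.66). Ctcflos measured 8.48 and 3.71 with WT at 1.48 and 2.80 (ratio 2.29, 1.60 to 3.32).

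The promoter table (250 bases before to 50 after a start, both strands searched) held 36 of the 54 genes. The half-site AGGTCA was present in 9 of the 36 (25%) and in 18.1% of all 27025 genes of the table. The Rev-Erb element ANTAGGTCA, which contains the half-site, was present in 2 of the 36, Gm15417 and 1700096K18Rik, and in 0.707% of all genes. A direct repeat of the half-site with 2 bases between the copies was present in 0 of the 36. Over the 476 noncoding genes with a site anywhere and an entry, the half-site was present in 85 (17.9%) and the element in 5 (1.05%). A match is a run of letters and not a measured contact.

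The promoters with the element and that of Gm9961, which holds a half-site, are shown with the motif in capitals, read from 5′ to 3′ on the gene's strand. They were chosen after their motifs were seen. In Gm9961 the capitals are the half-site on the opposite strand.
Gm15417, promoter at chr3:89391614-89391913 (+ strand, GRCm38.p6): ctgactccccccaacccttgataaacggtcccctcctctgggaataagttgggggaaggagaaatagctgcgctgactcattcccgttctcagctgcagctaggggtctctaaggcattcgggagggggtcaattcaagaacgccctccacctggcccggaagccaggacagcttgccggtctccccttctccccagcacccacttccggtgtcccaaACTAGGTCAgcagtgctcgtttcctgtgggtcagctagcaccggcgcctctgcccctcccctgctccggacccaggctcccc
1700096K18Rik, promoter at chr5:25529768-25530067 (+ strand, GRCm38.p6): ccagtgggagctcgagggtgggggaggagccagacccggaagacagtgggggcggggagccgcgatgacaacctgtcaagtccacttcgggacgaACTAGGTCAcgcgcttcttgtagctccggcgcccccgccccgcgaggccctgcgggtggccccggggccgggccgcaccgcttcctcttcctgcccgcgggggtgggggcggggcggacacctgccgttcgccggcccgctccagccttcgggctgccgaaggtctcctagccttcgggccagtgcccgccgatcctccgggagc
Gm9961, promoter at chr16:11901114-11901413 (+ strand, GRCm38.p6): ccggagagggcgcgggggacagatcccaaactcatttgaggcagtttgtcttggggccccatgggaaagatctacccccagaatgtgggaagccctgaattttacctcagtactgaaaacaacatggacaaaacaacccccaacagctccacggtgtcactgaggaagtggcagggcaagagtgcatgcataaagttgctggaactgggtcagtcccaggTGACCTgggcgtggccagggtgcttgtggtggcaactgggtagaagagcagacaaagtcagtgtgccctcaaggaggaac

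The table holds a second start of Gm15417, whose promoter has no half-site, and which of its starts the mm9 window belongs to was not settled. In the Gm15417 promoter shown the element starts 32 bases before the gene start, and in 1700096K18Rik 155 bases before it. The windows are centred 107 and 101 bases before the starts of the mm9 annotation. The Gm15417 window measured 7.69 FPKM at 4 °C and 2.97 at 29 °C, with WT at 1.48 and 1.21 (ratio 2.60, 1.75 to 3.92). The 1700096K18Rik window measured 6.52 and 2.56, with WT at 0.93 and 1.01 (ratio 2.55, 1.67 to 3.99). Gm9961 had 2 promoter windows that differed. The one 0.921 kb before its start, outside the stretch shown, measured 14.9 and 7.25 FPKM with WT at 0.75 and 2.20 (ratio 2.06, 1.59 to 2.68). The one 0.048 kb before it, listed at 29 °C only, measured 2.75 and 4.45 with WT at 0.56 and 0.21 (ratio 0.618, 0.392 to 0.963).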

How the data were processed

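HA-RevErbα binding was measured by ChIP-seq in 12 libraries, grouped by their titles. Nothing in the labels ties a library to 1 mouse, so the p-value on depth reflects a spread that may be technical. The submitters' processing notes name Bowtie2 2.1.0, HOMER 4.10 and build mm9. Aligner logs gave the reads of each library. Per the file headers, the authors called peaks on pooled libraries. The FPKM deposited by the authors are per pool and window, with 0.01 added. The peak score deposited by the authors follows from the 4 °C or 29 °C HA-RevErbα reads in the window, and the columns named minus input hold, in FPKM, the difference of HA-RevErbα and WT. Positions are printed as deposited, since no source used here says whether they start at 0 or 1.

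After taking off 0.01, all 13410 FPKM values of a pool (100%) fell within 0.01 FPKM of multiples of 1 smallest step. This gave the reads per window (median 91 at 4 °C and 32 at 29 °C at the noncoding sites) and the size of each pool. The read recovery and the intervals were tested on simulated data. Windows that overlapped by at least 1 bp were 1 site, with the values of the 4 °C window. The ratio divides window reads by pool size at each temperature. It has an exact Clopper-Pearson interval at the 95% level, which covers counting error only (the sources name no molecular identifiers, so reads need not be independent molecules). A ratio of at least 2 was called higher at 4 °C and one of at most 0.5 lower. No test was made on pools. Groups follow symbol and gene type, and hosts follow the authors' detailed annotation. Gene names and sequences came from RefSeq tables of GRCm38.p6, and the sequences of the mm9 windows were not analysed here. Named were the microRNA genes with the 12 highest scores and the 3 largest and smallest ratios, other labels with the 10 highest scores, the 5 largest and smallest ratios of shared sites and the 5 highest scores at 29 °C only, both gene lists, and the best promoter site of each group, by 1 site per gene. The members, lists and rules were chosen with earlier results of these data known. Alternatives were other scalings, WT subtraction, a pseudocount of 0.5 FPKM, filters, stricter peaks and other overlaps. Python 3.11.15, numpy 2.4.6, pandas 2.3.3 and scipy 1.17.1 were used.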

Additional observations from a re-analysis of the deposited data

How the results depend on the processing

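The median ratio of 2.91 became 2.02 with pools scaled by WT reads over shared sites, 1.70 scaled by WT reads over the windows of the 29 °C list, 3.82 with WT subtracted (1724 sites), 2.56 with the pseudocount and 2.77 at sites with at least 1 FPKM at both temperatures. The 1529 sites with a ratio of at least 2 became 996 and 704 under the same scalings. Among the stricter peaks they were 557 of 713 and among sites within 10 kb of the start 360 of 466, counts that are lower because fewer sites enter. The noncoding share of 16.7% was 15.2% within 10 kb and 16.0% with gene type ncRNA only. HA-RevErbα over WT, a median of 6.28 in the 4 °C list and 6.89 in the 29 °C list, was 4.62 and 4.63 with the pseudocount and 6.52 and 4.96 over the mean of both WT pools. The cause of these differences was not tested. Without each library in turn the difference in depth ran from -0.703 to 3.07 M (mega) reads. Of the 72 sites picked by the naming rule, 0 passed from a called ratio to the other side of 1 under the alternatives run. For the scalings, with a factor of at most 1.71, and for the pseudocount, this was fixed in advance, since neither can carry a called ratio past 1. Only WT subtraction and the use of the 29 °C window at shared sites could have done so. With WT subtracted, 2 uncalled sites crossed 1. No paired analysis was possible because the binding values are of pools. The replicate numbers in the titles of the HA-RevErbα libraries also differ between temperatures, so they give no pairs. At 29 °C the median site rests on 32 reads, which limits ratios at weak sites.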
